A study of Mus musculus with 2 samples.

Results

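The TGF-beta core examined here is a set of 8 genes, taken by symbol: the ligands Tgfb1, Tgfb2 and Tgfb3, the receptors Tgfbr1, Tgfbr2 and Tgfbr3, and the receptor-regulated SMADs Smad2 and Smad3. All 8 had at least 1 probe set that named them alone, among 18193 genes with such a probe set. A probe set is the group of short probes that reports 1 transcript on the array. The 8 genes had 20 probe sets, and 18 of these gave a signal above the floor on both arrays. The floor is the median signal of an array, 91.3 on the control array and 82.4 on the mutant array, and a probe set above it on both arrays is called measured here.

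The samples were endocardial lineage cells of mouse hearts at embryonic day 12.5, sorted for the Tie2Cre lineage and against CD41, CD45 and Ter119, which mark blood cells. The control genotype was Tie2Cre;Tbx20 +/loxP and the mutant genotype Tie2Cre;Tbx20 loxP/-, so both carried the Tie2Cre transgene and 1 floxed allele of Tbx20, a T-box transcription factor of the heart. The control kept a wild-type allele and the mutant carried a null allele in its place. Tie2Cre acts in endothelial and endocardial cells, in the cushion mesenchyme that descends from them, and in blood cells. Each genotype was measured on 1 array, and whether embryos were pooled is not given in the sources used here. There is no replicate check on any value below, so no test between genotypes was possible and the differences are those between these 2 arrays.

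TGF-beta ligands are secreted as latent complexes and must be released before they bind. An active ligand brings the kinase receptors encoded by Tgfbr2 and Tgfbr1 together, Tgfbr3 (betaglycan) presents ligand to them, and the receptor complex phosphorylates Smad2 and Smad3, which enter the nucleus with Smad4. In the embryonic heart this pathway takes part in the endothelial-to-mesenchymal transition that fills the endocardial cushions, the precursors of the valves.

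Promoter sequences are given for Tgfb2 and Tgfb1, the ligands that differed most between the arrays. The 250 bases before their annotated starts, from RefSeq on GRCm38.p6, are shown here because these ligands stood on opposite sides of the control signal. They are read in the direction of transcription, from chr1:186705990-186706239 on the minus strand for Tgfb2 and chr7:25686752-25687001 on the plus strand for Tgfb1. Capitals mark a TATA box, spelled TATAAA, an E-box, spelled CACGTG, and GC boxes, spelled GGGCGG or, on the other strand, CCGCCC.
Tgfb2: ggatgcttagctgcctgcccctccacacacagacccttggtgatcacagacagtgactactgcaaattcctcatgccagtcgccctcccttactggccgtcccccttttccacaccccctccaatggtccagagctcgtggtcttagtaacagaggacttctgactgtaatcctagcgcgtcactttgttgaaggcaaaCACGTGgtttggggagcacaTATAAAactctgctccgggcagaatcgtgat
Tgfb1: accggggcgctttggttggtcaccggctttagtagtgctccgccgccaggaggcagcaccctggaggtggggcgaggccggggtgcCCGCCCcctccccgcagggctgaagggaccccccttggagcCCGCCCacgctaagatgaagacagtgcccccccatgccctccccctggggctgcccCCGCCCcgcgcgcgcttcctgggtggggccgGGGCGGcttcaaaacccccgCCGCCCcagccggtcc

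The Tgfb2 window held a TATA box at positions -31 to -26 from the start and an E-box at -51 to -46, and no GC box. The Tgfb1 window held 5 GC boxes and neither of the other motifs. Their GC contents were 53.6% and 75.2%, against a median of 52.4% over 32851 promoters, and they held 8 and 21 CpG dinucleotides. Searched on both strands in windows of the same length, a TATA box was present in 12.4% of all promoters, an E-box in 6.02% and a GC box in 32.7%. These motifs do not overlap one another in either window. GC boxes without the other motifs were not particular to Tgfb1, since Tgfbr1 and Smad3 each held 2 GC boxes and neither other motif. The brightest probe sets of Tgfbr1 and Smad3 were lower in the mutant (-0.46 and -0.19), and their other measured probe sets were higher. A link between promoter motifs and direction was not tested. The T-box letters AGGTGTGA, present in 1.12% of promoters, and the SMAD letters GTCTAGAC, present in 0.167%, were in 0 of the 6 windows of the 5 genes searched, Tgfb1, Tgfb2, Tgfbr1, Tgfbr2 and Smad3. A match or its absence describes these letters in these windows and shows nothing about binding.

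Tgfb2 was lower in the mutant on all 4 of its measured probe sets. Tgfb2 is the ligand most closely tied to cushion formation in the mouse. Its brightest probe set read 3062 on the control array and 1589 on the mutant array, 51.9% of control. The other probe sets read 2544 and 1820, 1348 and 794, and 904 and 729. The log2 ratios of mutant over control ran from -0.95 to -0.31, with a mean of -0.63 (SD 0.28 over 4 probe sets). That SD covers probe error only, since all probe sets read the same RNA, and the 3 brighter probe sets come from 1 source sequence. Of the 498 genes with 4 measured probe sets, 22.3% had all of them on the same side of 0. In 8 of the 498, or 1.61%, the highest ratio was at or below the highest of Tgfb2.

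Tgfb1, the ligand made by endothelial and blood cells among others, was higher in the mutant. Its measured probe set read 2257 on the control array and 3502 on the mutant array, 1.55-fold higher, a log2 ratio of 0.63. Its other probe set read 81.8 and 42.5, not above the floor on either array, so the direction rests on 1 probe set. Tgfb3, a ligand of later cushion and outflow mesenchyme, read 680 on the control array and 490 on the mutant array on its only probe set, a log2 ratio of -0.47. The ratios of Tgfb1 and Tgfb2 lay 1.58 apart on the log2 scale, each taken from its brightest probe set.

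The signals of every probe set are plotted by gene, with the floor of each array.

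**Figure D1:**
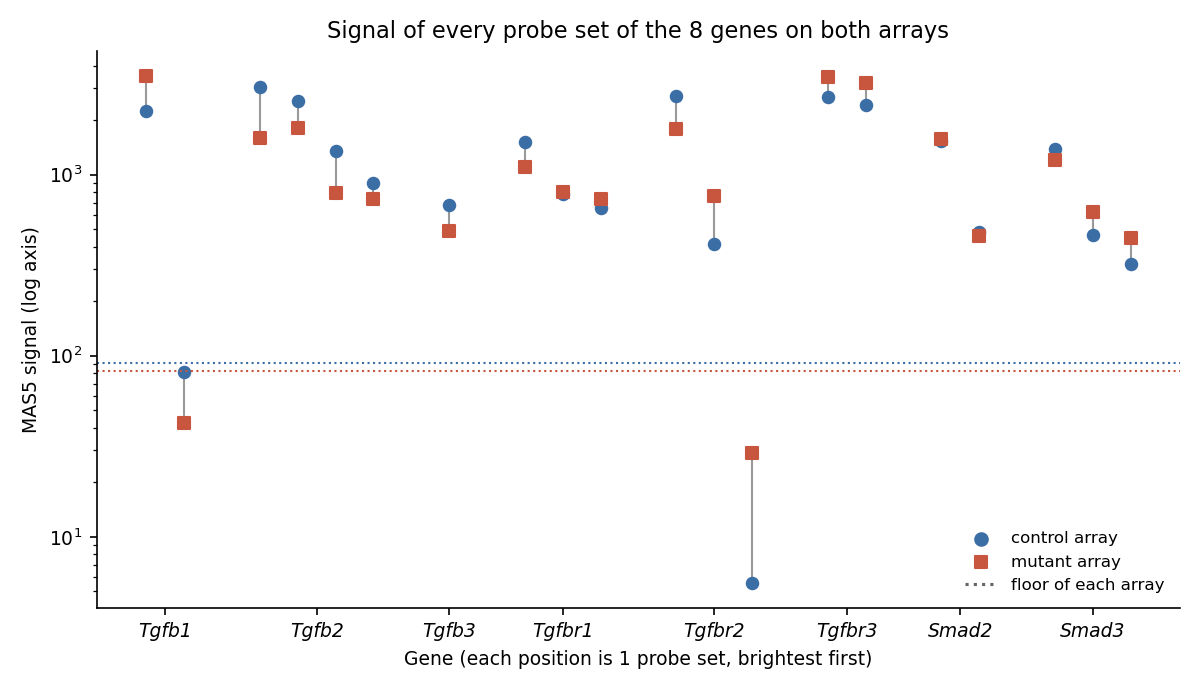
MAS5 signal (log axis) of the 20 probe sets of the 8 genes, grouped by gene with the brightest first; circles are the control array, squares the mutant array, and dotted lines the floors of 91.3 and 82.4. All 4 Tgfb2 probe sets have the mutant square below the control circle, both Tgfbr3 probe sets have it above, and 1 probe set each of Tgfb1 and Tgfbr2 lies under the floor on both arrays.

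Among the receptors, Tgfbr3 was the only one whose measured probe sets all lay on the same side. Tgfbr3 encodes betaglycan, the co-receptor that the ligand encoded by Tgfb2 depends on most. It read 2675 on the control array and 3454 on the mutant array on the brightest probe set, and 2420 and 3220 on the other. The log2 ratios of 0.37 and 0.41 were both higher, with an SD of 0.031 over 2 probe sets. Of 3032 genes with 2 measured probe sets, 57.0% had both on the same side.

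Tgfbr2 and Tgfbr1 gave no common direction over their probe sets. Tgfbr2, the ligand-binding type II kinase receptor, read 2726 on the control array and 1784 on the mutant array on its brightest probe set, a log2 ratio of -0.61. Its second probe set read 413 and 760, a log2 ratio of 0.88 and thus the opposite sign. These 2 ratios lay 1.49 apart, and a gap at least that wide was found in 24 of the 3032 genes with 2 measured probe sets, or 0.792%, against a median gap of 0.31. The third Tgfbr2 probe set read 5.60 and 29.0, under the floor on both arrays, and its ratio was not used. The direction of Tgfbr2 was thus not settled by these probe sets.

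Tgfbr1, the type I kinase receptor that phosphorylates the SMADs, read 1508 on the control array and 1097 on the mutant array on its brightest probe set, a log2 ratio of -0.46. The other measured probe sets, made from the same source sequence, read 780 and 806 and 653 and 736, log2 ratios of 0.05 and 0.17. The mean over all 3 probe sets was -0.08 (SD 0.33), so the spread between probe sets exceeded the mean difference.

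Smad2 differed least between the arrays. It read 1539 on the control array and 1571 on the mutant array on its brightest probe set and 480 and 456 on the other, log2 ratios of 0.03 and -0.07. The sign of the brightest turned with quantile normalization (-0.0039) and loess (-0.012). Smad3, the SMAD that binds DNA directly, read 1384 and 1211 on its brightest probe set, a log2 ratio of -0.19. Its other probe sets, both from 1 source sequence, read 462 and 622 and 323 and 446, log2 ratios of 0.43 and 0.47. The brightest Smad3 probe set was thus lower and the dimmer ones higher, with a mean of 0.23 (SD 0.37 over 3 probe sets).

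Over all measured probe sets of the 8 genes, 9 were lower and 9 higher in the mutant. Of the 6 genes with several measured probe sets, 2 had all of them on the same side, Tgfb2 and Tgfbr3. Among all 5172 such genes 45.1% did.

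**Figure D2:**
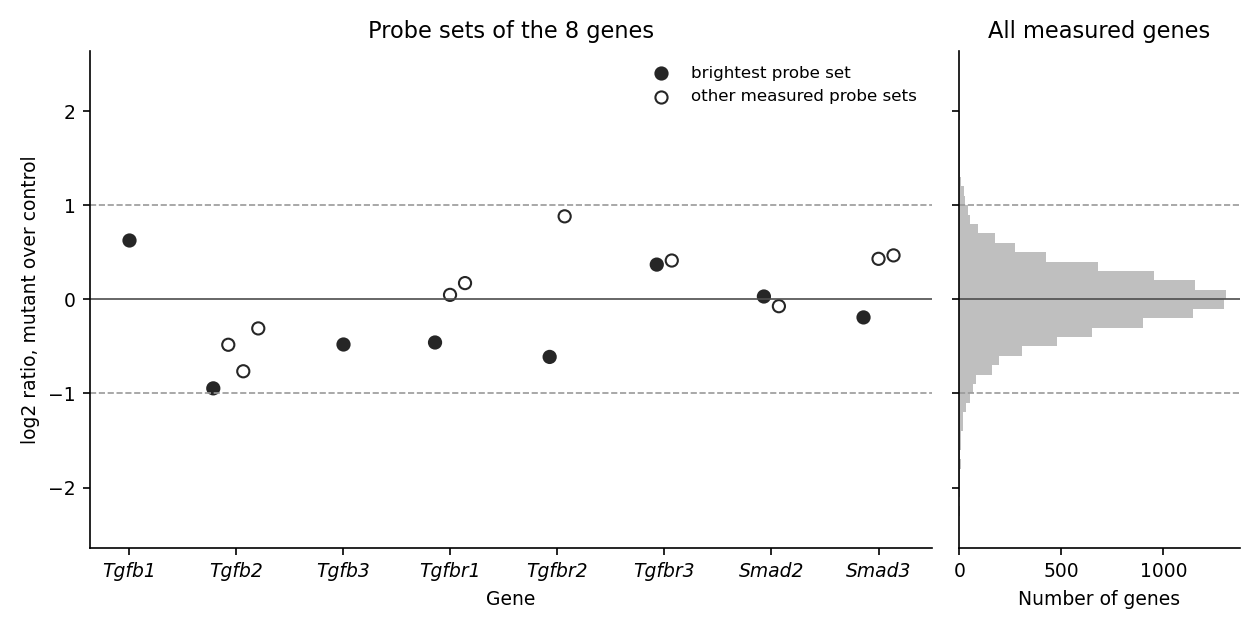
Left, log2 ratio of mutant over control for each of the 18 measured probe sets, filled for the brightest of a gene and open for the others, with dashed lines at 2-fold; right, the number of all 10665 measured genes at each ratio. Tgfb2 lies below 0 on all 4 probe sets and Tgfbr3 above 0 on both, while Tgfbr2 spans from -0.61 to 0.88.

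No member reached 2-fold on its brightest probe set, in either direction. Over all 10665 measured genes, 1.46% were at least 2-fold lower and 0.647% at least 2-fold higher, so 0 of 8 is near that background. At 1.5-fold, 2 members were lower, Tgfb2 and Tgfbr2, against 6.61% of all measured genes. Tgfb1 was the 1 member at least 1.5-fold higher, against 4.37%. The median log2 ratio of the 8 genes was -0.33, with 5 lower and 3 higher, beside a median of -0.01 and 51.0% lower over all measured genes. The sign of that median depends on how probe sets are combined, since with the median over each gene's measured probe sets it was 0.09.

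Brightness bears on how far these ratios can be read, and all members except Tgfb3 had a mean signal over 1000. In that class of 4347 genes, the SD between probe sets of the same gene was 0.31 on the log2 scale. It covers probe error only and holds no spread between samples, so distances in it are not a test between genotypes. The brightest Tgfb2 probe set lay 3.03 such SDs from 0, Tgfb1 2.03, Tgfbr2 1.96, Tgfbr1 1.47 and Tgfbr3 1.18. Smad3, at 0.617, and Smad2, at 0.095, lay within 1 SD. Tgfb3, in the class from 200 to 1000 with an SD of 0.39, lay at 1.22. In the bright class 0.828% of genes had a ratio at or below that of Tgfb2, and 1.17% had one at or above that of Tgfb1. For Tgfbr2 2.51% lay at or below, although its second probe set pointed the other way.

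**Figure D3:**
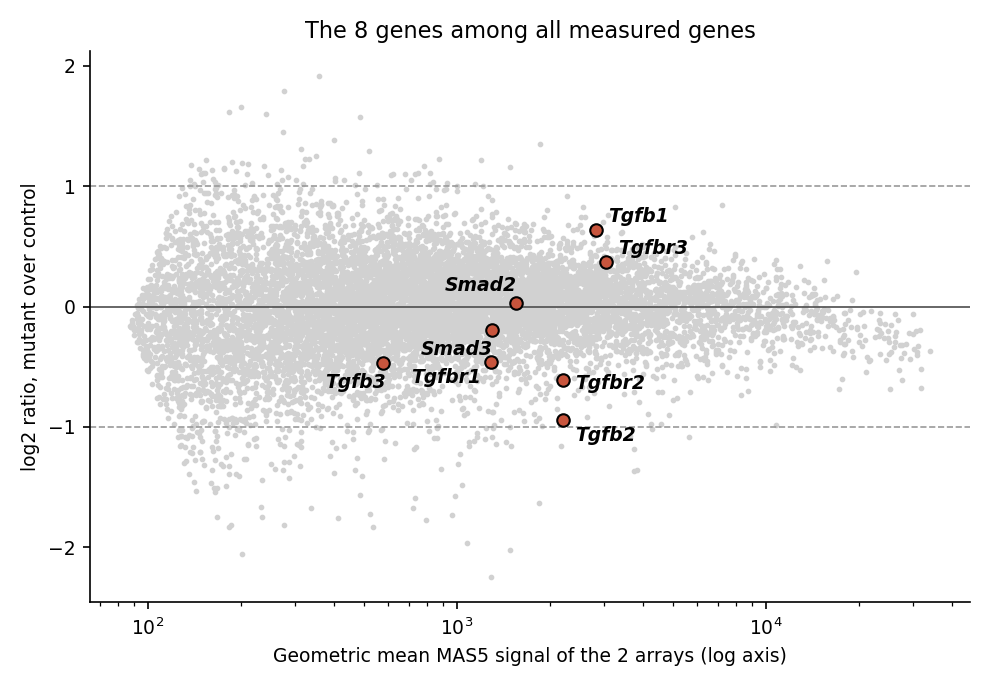
Log2 ratio of mutant over control against the geometric mean MAS5 signal of both arrays (log axis) for the brightest probe set of each of 10665 measured genes in grey, with the 8 named genes marked. Tgfb2 at -0.95 sits near the lower edge of genes of like brightness and Tgfb1 at 0.63 near the upper edge, and Smad2 at 0.03 lies in the middle.

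The gene closest in ratio to Tgfb2 was Smad7, the inhibitory SMAD that feeds back on the receptors. The measure was the distance between the log2 ratios of the brightest probe sets, over 5166 other genes with several measured probe sets. With 2 arrays this likeness is a single value per gene. Smad7 read 2499 and 1293 (-0.95), Ccdc173 280 and 146 (-0.94), and Socs3, an inhibitor of cytokine signalling, 1926 and 1004 (-0.94). The second probe sets of Smad7 and Ccdc173 stood at -0.31 and -0.26, while the 3 probe sets of Socs3 lay between -0.94 and -0.81.

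The other genes of the pathway were followed in 5 lists, which were drawn up with earlier results of these arrays known. Together they named 55 measured genes, of which 43 (78.2%) were lower and 12 higher, beside 51.0% lower over all measured genes. At 2-fold 3 were lower and 0 higher, beside 1.46% and 0.647% over all measured genes. Their median log2 ratio was -0.20, beside -0.01.

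Genes of ligand storage and activation were mostly a little lower. Of 9 measured genes 7 were lower and 2 higher, with a median of -0.11. Thbs1, a thrombospondin that can release active ligand, read 3252 on the control array and 1457 on the mutant array, a log2 ratio of -1.16, and its other probe set was at -1.12. Ltbp3, a protein that ties latent ligand to the matrix, read 7325 and 4912 (-0.58), with its other probe set at -0.69. Emilin1, an inhibitor of ligand processing, read 3606 and 2723 (-0.41), but its other probe set was at 0.35. Nrros, which holds latent ligand on macrophages and microglia, read 242 and 335 (0.47). Ltbp2 read 42.5 and 91.9 and so lay above the floor in the mutant alone, at a bound of at least 1.01-fold higher.

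Of the accessory receptors, 3 of 4 were measured. Eng, the endothelial co-receptor endoglin, read 7616 and 8332 (0.13), with its other probe set at -0.36. Acvrl1, the endothelial type I receptor, read 210 and 171 (-0.30), and Bambi, a decoy receptor, 2149 and 1778 (-0.27). Cd109 was not above the floor on either array. The activin and nodal branch, which also signals through Smad2 and Smad3, had 7 measured genes with a median of -0.06. Fst, which encodes the activin-binding protein follistatin, read 111 and 163 (0.55), while its other probe set was at -0.48. Fstl3, a related binding protein, read 932 and 693 (-0.43), and the inhibin subunit gene Inha 110 and 85.2 (-0.37), close to the floor. The type II receptor gene Acvr2b was at -0.11, with its 3 probe sets from -0.26 to 1.00. Inhbb, an activin subunit gene, read 69.9 and 121, at least 1.33-fold higher against the control floor.

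The SMAD partners and regulators had 13 of 18 measured genes lower and a median of -0.09. Pmepa1, a target gene that damps receptor signalling, read 1669 on the control array and 806 on the mutant array (-1.05), and the highest of its 3 probe sets was at -0.22. Smad7, described above, was next. Ski, a corepressor of SMADs, read 2760 and 1956 (-0.50), with its other probe set at 0.24. The inhibitory Smad6 read 3062 and 2353 (-0.38).

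Most target genes of TGF-beta signalling were lower in the mutant. Of 21 measured genes 19 were lower and 2 were higher, with a median of -0.33. At 2-fold 2 were lower, and at 1.5-fold 6. Over all measured genes 51.0% were lower, 1.46% at least 2-fold and 6.61% at least 1.5-fold, with a median of -0.01. The higher ones were Col1a2 at 0.06 and Has2 at 0.25. Among the lower ones Col1a1, Col3a1, Acta2 and Tagln lay between -0.16 and -0.03. Bhlhe40, a transcriptional repressor that hypoxia also induces, read 1706 on the control array and 573 on the mutant array (-1.57). Snai2, a repressor of cadherins in the mesenchymal transition, read 5643 and 3047 (-0.89), and its other probe set was at -0.83. Pmepa1 and Smad7 made up the 4 with the widest ratios. With the median over each gene's measured probe sets they were at -0.50 and -0.63. With plain _at probe sets Pmepa1 stayed at -1.05 and Smad7 was at -0.31. Cdkn2b, a cell cycle inhibitor, read 161 and 60.3, at least 1.95-fold lower against the mutant floor. Many of these genes respond to other signals too, and the list held 2 markers of cushion mesenchyme and 2 of smooth muscle. Over the 14 measured genes that no other list held, a choice made after the values were seen, 12 were lower and the median was -0.38. That choice left out only genes on another list, so it cannot separate a target response from a difference in cell types. Neither was tested.

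**Figure D4:**
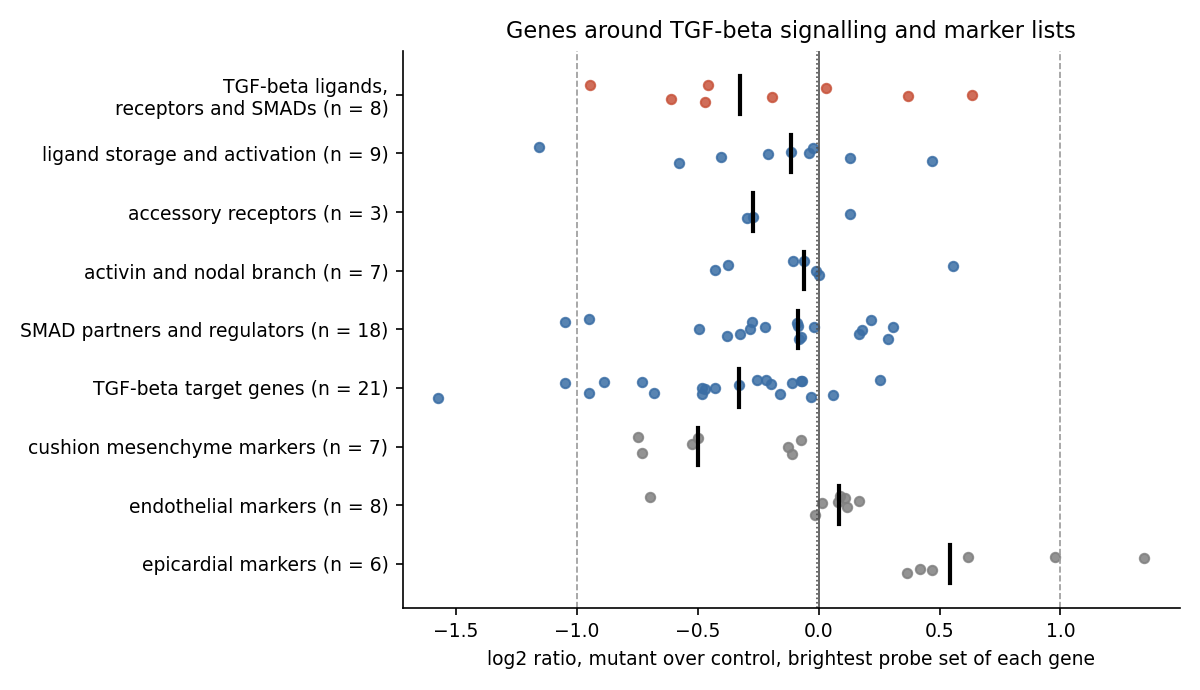
Log2 ratio of mutant over control of the brightest probe set of each measured gene (points) in the 8-gene TGF-beta core, the 5 pathway lists and 3 marker lists, with the median of each as a black bar, dashed lines at 2-fold and a dotted line at the median of all measured genes. The target genes have a median of -0.33 and the cushion mesenchyme markers one of -0.50, while the endothelial markers have a median of 0.08 with Cldn5 apart at -0.70, and the 6 measured epicardial markers lie above 0.

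Some marker lists also differed between the arrays, in both directions, while others were mixed, and their part in the results above was not tested. All 7 cushion mesenchyme markers were measured and lower, with a summed signal of 40835 on the control array and 30503 on the mutant array. Over all measured genes 51.0% were lower. At 1.5-fold 2 of the 7 were lower, beside 6.61% of all measured genes. Sox9 at -0.07, Col1a1 at -0.11 and Pdgfra at -0.13 differed least, and the 3 probe sets of Pdgfra ran from -0.81 to 0.20. Of 8 epicardial markers 6 were measured on their brightest probe set and higher, with sums over the list of 4712 and 8098. The brightest probe set of Upk1b was above the floor in the mutant alone, 89.9 against 269, at least 2.95-fold higher, and its 2 dimmer probe sets were at 0.18 and 0.64. Msln was not above the floor on either array. All 8 endothelial markers were measured, 6 of them higher, with sums of 47458 and 49429. The junction gene Cldn5 stood apart from them at -0.70, read at 900 and 556. Of 8 myocardial markers all were measured, 5 lower and 3 higher, with sums of 19603 and 21293. The widest ratios were those of Myl7, read at 3811 and 6753 (0.83), and Actc1 (0.62), both higher. Of 7 smooth muscle and pericyte markers 6 were measured, 4 lower and 2 higher, with sums of 7623 and 6956, and Myh11 was not above the floor on either array. Cspg4 (-0.93) and Kcnj8 (-0.85) had the widest ratios of that list, both lower, while Tagln was at -0.03 and Cnn1 at 0.01. The 5 endocardial markers were all measured, 2 lower and 3 higher, with sums of 20033 and 21149. The lower ones were Cytl1 at -0.85 and Nfatc1 at -0.33, whose probe sets ran from -1.58 to 0.16. The 3 measured erythroid genes were lower, with sums over the list of 11151 and 7272. Alas2 was above the floor in the control alone, at least 1.38-fold lower in the mutant, and Gata1 on neither array. Of the 6 macrophage and leukocyte markers 0 were above the floor on both arrays, with sums of 413 and 181. In the control alone Cx3cr1 read 226, at least 2.74-fold lower in the mutant, and Csf1r 144, at least 1.74-fold lower. Ptprc, which encodes CD45, and the other 3 were under the floor on each array. In bulk samples, fewer cells of a type and less RNA per cell cannot be told apart.

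Tbx20 itself and the Gapdh measure of RNA quality also differed between the arrays, while the actin measure was nearly equal. The 3 Tbx20 probe sets read 84.0%, 85.9% and 60.2% of control in the mutant, and whether these probe sets lie in the deleted part is not given in the sources used here. The ratio of the 3-prime over the 5-prime control probe set of Gapdh, a sign of RNA quality, was 2.27 on the control array and 1.64 on the mutant array, and for actin 0.989 and 0.998. Its part in the ratios above was not tested.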

How the data were processed

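Gene expression was measured on 1 Affymetrix array per genotype. The deposited values are intensities, 1 MAS5 signal per probe set on a linear scale, per the submitters' processing notes. Both columns had a trimmed mean (2% off each end) of 500.0, so each array had been scaled by 1 factor. The software version is not given in the sources used here. MAS5 subtracts the signal of mismatch probes, and weak signals then give unstable ratios.

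The platform annotation gave a single gene for 34945 of the 45101 probe sets. It gave several genes for 932 and had no entry for 9160, and the other 64 were array controls. Only single-gene probe sets were used. Values under the floor were set to it, and log2 ratios of mutant over control were taken. Each gene was represented by its brightest probe set, by mean log2 signal. Signals of different probe sets were not compared as levels, since each binds with its own strength. With 1 array per genotype no p-value was computed, and 2-fold and 1.5-fold were rules of size. A gene above the floor on 1 array has a bound against the other floor. Precision is limited by the number of arrays.

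The members and lists were chosen with earlier results of these data known. The text names all 8 members, up to 4 genes per list with the widest measured ratio, genes of the lists above the floor on 1 array only, and the 3 genes nearest in ratio to the member with the widest ratio. Some other genes of the lists are named because they stood apart, differed little or went the other way. Alternatives were median centring, quantile normalization, loess (span 0.3), floors at percentiles 25 and 75, a pseudocount of each array's median, other probe set rules, other folds and list means. The steps were tested on simulated data. Promoters were taken from a RefSeq table, which had 5 of the 8 members. The 3 motifs printed in capitals were chosen after the sequences were seen. Python 3.11.15, pandas 2.3.3 and statsmodels 0.14.6 were used.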

Additional observations from a re-analysis of the deposited data

How the results depend on the processing

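Scaling and floors moved no member by as much as the SD between probe sets of 1 gene. Over 9 settings Tgfb2 ran from -0.98 to -0.48 and Tgfb1 from 0.61 to 0.63, and Tgfbr3 stayed higher, from 0.35 to 0.39. Tgfb3 stayed lower in the 8 settings that gave a value. Tgfb1 and Tgfb3 had 1 measured probe set each, so the other probe set rules could not move them. Smad2 was at 0.03, at -0.0039 after quantile normalization, at -0.012 after loess and at -0.07 with plain _at probe sets. Taking the median of each gene's measured probe sets put Tgfb2 at -0.62, Tgfbr1 at 0.047, Tgfbr2 at 0.13 and Smad3 at 0.43, and the members' median at 0.091. With plain _at probe sets, Tgfb2 was at -0.48 and the SMAD partners had a median of -0.25. With the floor at the 75th percentile the members' median was -0.19, that of the accessory receptors -0.072 and that of the target genes -0.26. As means, the members were at -0.21, SMAD partners at -0.18 and target genes at -0.42. At 1.5-fold, 2 members were lower and 1 higher. Over all genes, 705 were lower and 466 higher at 1.5-fold, 19 and 5 at 3-fold, 537 and 233 with the floor at the 25th percentile, and 34 and 12 at the 75th. With a pseudocount 25 were higher. The medians of all 5 pathway lists were below 0 in every setting tried. With the median over each gene's probe sets, ligand storage and activation was at -0.026, close to all genes at -0.0013. The median over all genes also moved, from -0.085 with the pseudocount to 0.014 with the floor at the 75th percentile. With the pseudocount the SMAD partners, at -0.091, thus lay close to all genes, and the activin and nodal branch was at -0.12. The other lists then lay from -0.38 to -0.16. The cause of these differences was not tested. No paired analysis was possible because each genotype had 1 array.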
